A study of Mus musculus with 8 samples.

Results

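The genes described here carry out or control the handling of glucose in the liver: glycolysis, gluconeogenesis, the storage of glucose as glycogen, the entry of pyruvate into the mitochondrion, the pentose phosphate pathway, and the response to insulin and glucagon. They are a list of 38 genes, and their probes were taken by current or older symbol from the authors' processed table of 40646 probes, which gave 45 probes of 29 genes. The other 9 listed symbols (Fbp1, G6pc, Slc37a4, Ppp1r3b, Slc2a2, Irs2, Pklr, Pcx and Pck1) do not stand in that table, and 7 of these genes have probes on the arrays under a RefSeq accession, as told below. No probe was found for Pck1, which encodes cytosolic phosphoenolpyruvate carboxykinase, or for Irs2, which encodes an insulin receptor substrate, so these genes have no value here.

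Liver RNA of 4 wild-type (WT) and 4 miR-223KO samples was compared. All 8 samples were labelled as fresh liver of male mice on the C57BL/6J background, and all had been fed a high-fat diet for 3 months, so the WT samples are controls on the same diet and no group on another diet was compared. The knockout is given by genotype alone, with no word on the cells in which the microRNA is missing, and whether every sample came from its own mouse is not stated. P-values therefore measure the spread between these samples, which may be technical. Each sample was hybridised in Cy5 to its own 2-colour Agilent array against Ambion Mouse Assorted Total RNA in Cy3, with no dye swap, and the arrays lay on 2 slides of 2 WT and 2 miR-223KO arrays each. Every level below is a log2 ratio of liver Cy5 over reference Cy3 after normalisation within the array, and every difference is a log2 fold change, miR-223KO minus WT.

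In the fed liver, insulin acts through its receptor and the receptor substrates on the kinase AKT2, which keeps the transcription factor FOXO1 out of the nucleus and so lowers the transcription of gluconeogenic genes, while glycogen synthesis and glycolysis are promoted. In fasting, glucagon acts through its own receptor to favour the release of glucose from glycogen and its synthesis from lactate and amino acids. A high-fat diet is known to blunt the action of insulin on the liver.

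MiR-223 is a microRNA best known from myeloid cells, and it recognises messenger RNAs mainly through its seed (bases 2 to 8). Its mature arms are shown because their absence is what parts the groups. The sequences are those of RefSeq on GRCm38.p6, with the seed in capitals, and lie on the plus strand at chrX:96242884-96242905 for the 3p arm and chrX:96242842-96242864 for the 5p arm.
mmu-miR-223-3p: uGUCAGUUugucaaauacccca
mmu-miR-223-5p: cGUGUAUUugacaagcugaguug
The site that pairs with the 3p seed, AACTGAC, was looked for in the probes, which sample only 60 bases of each transcript. It stood in 0 of the 45 probes and in 150 of the 40554 probes of the table that have a sequence (0.37%).

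No gene of the list passed the test in miR-223KO liver. In limma, 24 of the 38 genes could be tested, 0 passed at an adjusted p of 0.05, and the lowest adjusted p was 0.98. Over all 16750 genes and unnamed probes 2 passed (0.0119%). An unadjusted p under 0.05 was reached by 3 of the 24 (12.5%, against 4.67% of all tested), Gapdh and Ppp1r3c lower and Foxo1 higher. The groups did not overlap for 2 of the 24, Gapdh and Foxo1 (8.33%, against 3.09% of all tested). Of the 24 genes, 11 lay higher and 13 lower (45.8% higher, against 48.2% of all tested), with a median difference of -0.01, the same as the median over all tested. Single differences ran from -0.75 to 0.62, with standard errors (SE) of 0.18 to 0.30, and the number of arrays limited the precision.

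**Figure D1:**
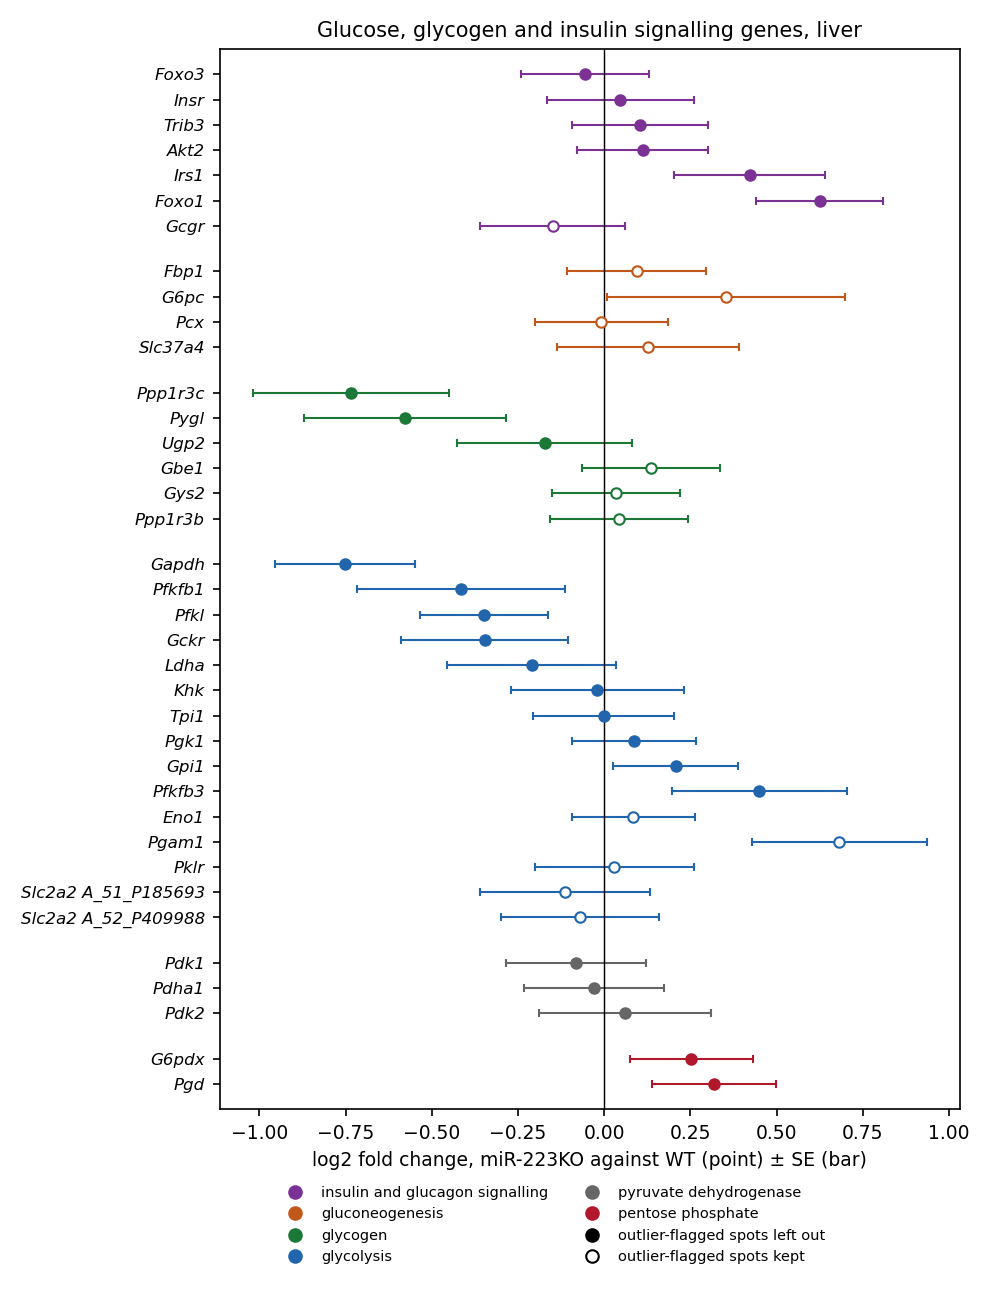
Log2 fold change of each gene, miR-223KO against WT (point), with its SE (bar), grouped by role. Filled points are the 24 genes tested, and open points are genes that kept too few unflagged spots for the test and are shown with the flagged spots kept. Gapdh, Ppp1r3c, Pygl and Foxo1 lie farthest from 0 among the filled points, and none of them passed the test.

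The 14 genes outside the test include many that the liver is known for, and all 12 that the arrays measured were lost to outlier flags, not to low signal. The scanner software flags a spot when its pixels are uneven or when it departs from copies of the same probe. The 620 array probes outside the authors' table were each flagged on at least 5 of the 8 arrays. The 14 probes of listed genes among them were flagged on 5 to 8 arrays and were well above background on all 8. Of the genes in the table, Gbe1, Gys2, Eno1, Pgam1 and Gcgr kept fewer than 3 unflagged values in a group. With flagged spots kept, a setting chosen in part after seeing the data, 36 of the 38 genes were measured and 0 passed in limma, against 1 of 17776 over all tested (0.00563%). An unadjusted p under 0.05 was then reached by 3 of the 36 (8.33%, against 4.71% of all tested), and the groups of 2 did not overlap (5.56%, against 2.75%). Foxo1 and Ppp1r3c stayed among the 3, Pgam1 joined them, and Gapdh, read there by another probe at -0.26 (unadjusted p = 0.149), left. The 2 genes without overlap were still Gapdh and Foxo1. In that setting 21 of 36 genes lay higher (58.3%, against 48.0% of all tested), with a median difference of 0.045, against -0.01 over all tested.

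**Figure D2:**
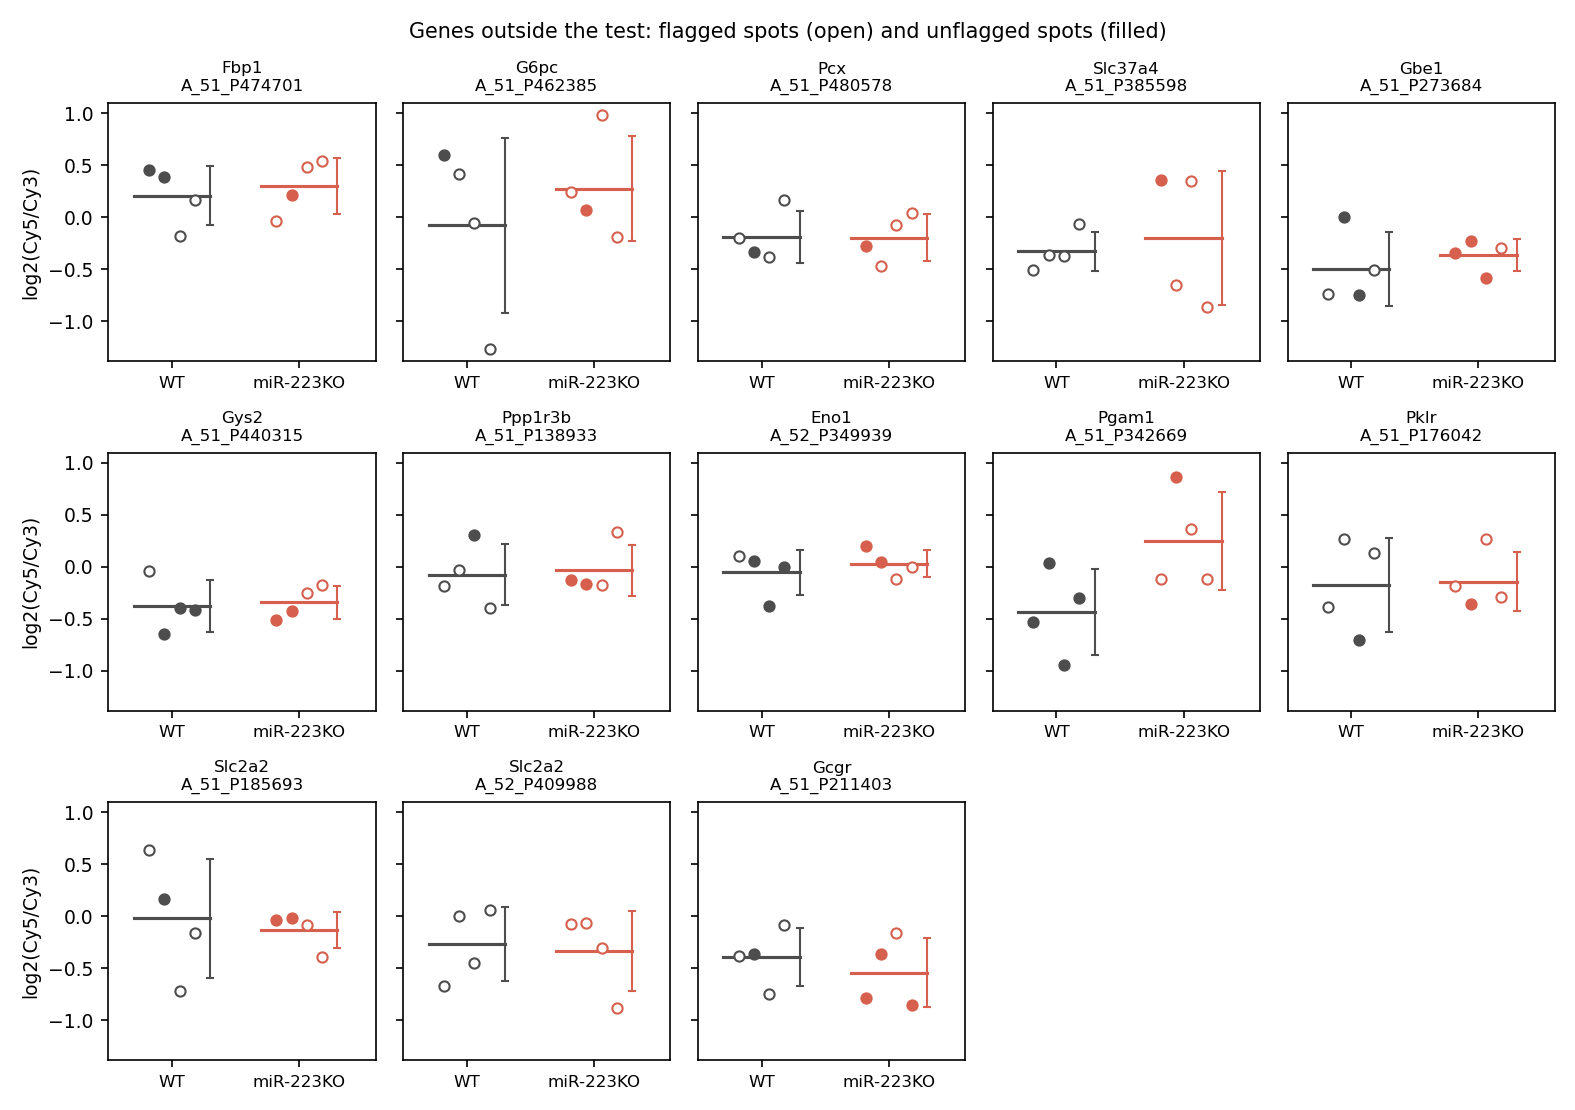
Log2 ratio of liver over reference RNA on every array for genes outside the test, WT in grey and miR-223KO in red, with flagged spots open and unflagged spots filled; lines give the mean and bars the SD of the 4 arrays. WT and miR-223KO values overlap in every panel, and Pgam1 shows the widest gap between its group means, at -0.43 and 0.25.

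Among the genes of glucose uptake, fructose entry and glycolysis, 3 of 10 tested lay higher and 7 lower, with a median difference of -0.12, but with arrays centred on their median in place of loess 6 of 10 lay higher. Gckr encodes a regulatory protein of hepatocyte glucose metabolism. Its WT arrays read -0.16, -0.11 and -0.05 for replicates 1 to 3, with replicate 4 flagged, and its miR-223KO arrays read -0.40, -0.92 and -0.05 for replicates 2 to 4, with replicate 1 flagged. The difference was -0.35 (SE 0.24, adjusted p = 0.98 in limma) and the groups overlapped. The flagged WT replicate 4 spot read 1.10, far above the other arrays, and with flagged spots kept the difference was -0.57 (SE 0.28). Pfkl, the liver form of phosphofructokinase, which commits sugar to glycolysis, read 0.54, 0.51, 0.22 and 0.23 in WT and -0.02, -0.13, -0.12 and 0.36 in miR-223KO. Only miR-223KO replicate 4 reached the WT values, and the difference was -0.35 (SE 0.19, unadjusted p = 0.0788, adjusted p = 0.98 in limma). Taken apart by channel, it was 0.0026 in Cy5 and 0.35 in Cy3, so as normalised it lay in the reference.

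The bifunctional enzymes that make and remove fructose 2,6-bisphosphate, the main activator of phosphofructokinase, lay on opposite sides of 0. Pfkfb1, the liver form, read -0.0045, -0.18, -0.73 and 0.86 in WT and -0.90, -0.23, -0.78 and 0.18 in miR-223KO, with wide overlap and a difference of -0.42 (SE 0.30, adjusted p = 0.98 in limma). Pfkfb3, a form known for its high kinase activity, read -0.58, -0.17, -0.26 and 0.22 in WT and 0.50, 0.60, 0.46 and -0.55 in miR-223KO on its brightest probe. There 3 of the 4 miR-223KO arrays lay above all WT arrays and replicate 4 lay among the lowest. The difference was 0.45 (SE 0.25, adjusted p = 0.98 in limma), at 0.92 within slide 1 and -0.02 within slide 2. Without miR-223KO replicate 4 it was 0.72. Its other probes stood at 0.21 (SE 0.21) and -0.06 (SE 0.21).

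Gapdh, which encodes a glycolytic dehydrogenase often used as a reference gene, had the lowest p of the list. Its tested probe read 0.41, 0.59, 0.50 and -0.15 in WT and -0.40, -0.33, -0.23 and -0.71 in miR-223KO, so every miR-223KO array lay below every WT array. The mean was 0.34 ± 0.33 (SD, n = 4) in WT and -0.42 ± 0.21 (SD, n = 4) in miR-223KO. The difference was -0.75 (SE 0.20, 95% interval -1.18 to -0.32, unadjusted p = 0.0019, adjusted p = 0.98 in limma), or 1.68-fold lower, at -0.86 and -0.64 within the slides. In Cy5 it was -0.60 and in Cy3 0.15. This probe, A_52_P589321, was dim, with a mean log2 Cy5 level of 7.78 in WT and 7.18 in miR-223KO. It was well above background on only 7 of 8 arrays, so the size is uncertain, and the authors' deposited table gives -1.26. It was named by the symbol of that table alone and carries no RefSeq accession, and Gapdh has many near-identical copies in the genome that a probe could also catch. The 2 probes with a RefSeq accession of Gapdh were flagged on 7 arrays each. They were far brighter, with mean log2 Cy5 levels of 14.84 and 13.27 in WT. With flagged spots kept they stood at -0.26 (SE 0.17) and 0.44 (SE 0.24), on both sides of 0. On the first, A_52_P1687, every miR-223KO array again lay below every WT array. Its difference was 0.04 in Cy5 and 0.30 in Cy3, so as normalised it lay in the reference. On the second the groups overlapped.

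The other glycolytic enzymes stood nearer to 0. Gpi1, glucose 6-phosphate isomerase, read -0.58, -0.16, -0.30 and -0.36 in WT and -0.14, -0.41, 0.04 and -0.05 in miR-223KO, averaged over up to 10 spots an array, with overlapping groups and a difference of 0.21 (SE 0.18, adjusted p = 0.98 in limma). Its other probe stood at -0.34 (SE 0.25), and the mean of both at -0.07. Ldha, a lactate dehydrogenase subunit, stood at -0.21 (SE 0.24) with loess and at 0.11 with median centring. Pgk1, phosphoglycerate kinase, stood at 0.09 (SE 0.18) over up to 10 spots an array, though at -0.16 from the scanner's processed signals. Khk, ketohexokinase of fructose entry, stood at -0.02 (SE 0.25), and Tpi1, triose phosphate isomerase, at -0.0016 (SE 0.21). With median centring these became 0.34 and 0.13. This Tpi1 probe was named by the table's symbol alone, and the probe with a RefSeq accession of Tpi1 stood at -0.26 (SE 0.19) with flagged spots kept. The mean log2 Cy5 level in WT was 8.03 on the tested Tpi1 probe and 13.13 on the other. With flagged spots kept, further probes stood at -0.05 (SE 0.28) for Ldha, -0.20 (SE 0.20) for Pgk1 and 0.14 (SE 0.21) for Khk. The tested Pgk1 probe then stood at -0.05 (SE 0.16).

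Pgam1, phosphoglycerate mutase, had the largest difference among the genes seen only with flagged spots kept, and it is named after its value was seen. It read -0.53, 0.04, -0.95 and -0.30 in WT, all unflagged, and -0.12, 0.86, 0.36 and -0.12 in miR-223KO, where only replicate 2 was unflagged. WT replicate 2 lay above 2 of the miR-223KO arrays, so the groups overlapped. The difference was 0.68 (SE 0.25, unadjusted p = 0.0163, adjusted p = 0.984 in limma), at 0.62 and 0.75 within the slides and 0.48 to 0.84 when each array was left out in turn. Pklr, the pyruvate kinase of liver and red cells and a known target gene of the carbohydrate response factor ChREBP, read -0.38, 0.27, -0.70 and 0.14 in WT and -0.19, -0.35, 0.27 and -0.29 in miR-223KO with flagged spots kept. Its difference was 0.03 (SE 0.23), and the groups fully overlapped. Slc2a2, which encodes the glucose transporter GLUT2 of the hepatocyte membrane, has probes A_51_P185693 and A_52_P409988. The first read 0.64, 0.16, -0.72 and -0.16 in WT and -0.04, -0.02, -0.08 and -0.39 in miR-223KO. The second read -0.67, 0.01, -0.44 and 0.06 in WT and -0.08, -0.07, -0.31 and -0.88 in miR-223KO. Neither parted the groups, at -0.11 (SE 0.25) and -0.07 (SE 0.23). Eno1, an enolase, stood at 0.08 (SE 0.18).

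None of the gluconeogenic genes could be tested with flagged spots left out. With them kept, 4 of 5 were measured, 3 higher and 1 lower, with a median difference of 0.11. G6pc encodes the catalytic subunit of glucose 6-phosphatase, which lets the liver release free glucose. It read 0.60, 0.42, -0.06 and -1.27 in WT and 0.25, 0.07, 0.98 and -0.19 in miR-223KO, where WT replicate 4 lay far below all other arrays and the remaining values overlapped. The difference was 0.35 (SE 0.35, 95% interval -0.38 to 1.09, adjusted p = 0.984 in limma), at -0.35 within slide 1 and 1.06 within slide 2. Without WT replicate 4 it was -0.04. Slc37a4, the transporter that brings glucose 6-phosphate to that enzyme, stood at 0.13 (SE 0.26). Fbp1, fructose 1,6-bisphosphatase, stood at 0.09 (SE 0.20) and Pcx, pyruvate carboxylase, at -0.01 (SE 0.19).

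Glycogen genes held the largest lower values after Gapdh. All 3 that could be tested lay lower, with a median of -0.58, but with flagged spots kept 6 were measured and 4 of them lay higher, with a median of 0.04. From the scanner's processed signals 1 of the 3 lay higher, Ugp2 at 0.03. Ppp1r3c encodes a subunit that brings protein phosphatase 1 to glycogen and promotes its synthesis. Its brightest probe, A_52_P30451, read 0.09, 0.31, 1.34 and -0.45 in WT and -0.37, -0.30, -0.44 and -0.54 in miR-223KO. The miR-223KO arrays lay close together, while WT replicate 3 stood far above and WT replicate 4 lay among the miR-223KO values. The mean was 0.32 ± 0.75 (SD, n = 4) in WT and -0.41 ± 0.10 (SD, n = 4) in miR-223KO. The difference was -0.73 (SE 0.28, 95% interval -1.34 to -0.13, unadjusted p = 0.0198, adjusted p = 0.98 in limma), or 1.66-fold lower, at -0.53 and -0.94 within the slides. It was -0.40 without WT replicate 3 and -0.99 without WT replicate 4.

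The other Ppp1r3c probe, A_51_P521010, read 0.17, 0.11, -0.02 and -0.63 in WT and -0.47, -0.23, -0.40 and 0.15 in miR-223KO. There WT replicate 3 did not stand out, the groups overlapped and the difference was -0.14 (SE 0.21). This probe was dimmer, at a mean log2 Cy5 level of 7.42 in WT and 7.16 in miR-223KO, against 8.63 and 8.09 on A_52_P30451. It was well above background on 3 of 4 arrays of each group, and A_52_P30451 on all 8 arrays. The first 30 of the 60 bases of both probes are given, in lower case since no part is marked, to show that they sample different stretches.
Ppp1r3c A_52_P30451: gtagatatgaattattttgaatgtgaactg
Ppp1r3c A_51_P521010: gtattgctcaatattaggaagtcgtagtta
Ppp1r3b, the related subunit that predominates in liver, stood at 0.04 (SE 0.20) with flagged spots kept.

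Pygl, liver glycogen phosphorylase, breaks glycogen down. Its tested probe read 0.41, 0.77, 1.35 and 0.98 in WT and -0.08, 1.29, -0.25 and 0.23 in miR-223KO, so miR-223KO replicate 2 lay among the WT arrays and the other miR-223KO arrays lay below all of them. The difference was -0.58 (SE 0.29, 95% interval -1.20 to 0.04, unadjusted p = 0.0668, adjusted p = 0.98 in limma). It lay in slide 2, at -1.17, and was 0.02 within slide 1. Without miR-223KO replicate 2 it was -0.91. This probe too was named by the table's symbol alone. Its mean log2 Cy5 level was 8.82 in WT and 8.05 in miR-223KO, against 12.97 and 12.90 on the brighter probe with a RefSeq accession. The probe with a RefSeq accession of Pygl, flagged on 5 arrays, read -0.12, -0.23, -0.03 and -0.45 in WT and -0.15, -0.14, -0.31 and -0.62 in miR-223KO with those spots kept, a difference of -0.10 (SE 0.18).

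Gys2, the liver glycogen synthase, showed no gap between the groups. With flagged spots kept it read -0.04, -0.64, -0.39 and -0.41 in WT and -0.51, -0.42, -0.25 and -0.17 in miR-223KO, a difference of 0.03 (SE 0.19, 95% interval -0.36 to 0.43). Ugp2, which makes the UDP-glucose used by the synthase, stood at -0.17 (SE 0.25) on its brightest probe and 0.11 (SE 0.20) on the other. Gbe1, the branching enzyme, stood at 0.14 (SE 0.20) with flagged spots kept.

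On their brightest tested probes the pyruvate dehydrogenase genes stood close to 0, with 1 of 3 higher, and with median centring all 3 lay higher. Pdha1, a subunit of the complex that turns pyruvate into acetyl-CoA, stood at -0.03 (SE 0.20), with its other probe at 0.19 (SE 0.24). Pdk1 and Pdk2 encode kinases that inhibit the complex. They stood at -0.08 (SE 0.20) and 0.06 (SE 0.25), and the other Pdk1 probe stood farther from 0, at -0.27 (SE 0.20).

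Both genes of the list from the oxidative pentose phosphate pathway, which yields NADPH for fatty acid synthesis, lay higher, and neither passed. They did so with loess, with median centring and from the scanner's processed signals. Of 6 other tested genes listed with that pathway, 3 lay higher and 3 lower. Among these Pgls stood at 0.20 (SE 0.23) and H6pd at -0.25 (SE 0.22). Pgd, phosphogluconate dehydrogenase, read -0.12, 0.07, 0.15 and 0.24 in WT and 0.17, 0.42, 0.38 and 0.65 in miR-223KO. Only miR-223KO replicate 1 lay within the WT range. The difference was 0.32 (SE 0.18, unadjusted p = 0.095, adjusted p = 0.98 in limma) and was the same within both slides, 0.32. It was 0.10 in Cy5 and -0.22 in Cy3, so as normalised more of it lay in the reference. The other Pgd probe stood at 0.14 (SE 0.22). G6pdx, glucose 6-phosphate dehydrogenase, which opens the pathway, read -0.43, -0.42, -0.10 and -0.04 in WT and 0.02, 0.06, -0.17 and 0.13 in miR-223KO. There 3 of the 4 miR-223KO arrays lay above all WT arrays, and the difference was 0.25 (SE 0.18, adjusted p = 0.98 in limma). The value was 0.46 and 0.05 within the slides and 0.57 from the scanner's processed signals. The G6pdx probe was dim, at a mean log2 Cy5 level of 7.12 in WT and 7.51 in miR-223KO. Only 3 WT arrays rose well above background there, against all 4 miR-223KO arrays, so the size is uncertain.

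**Figure D3:**
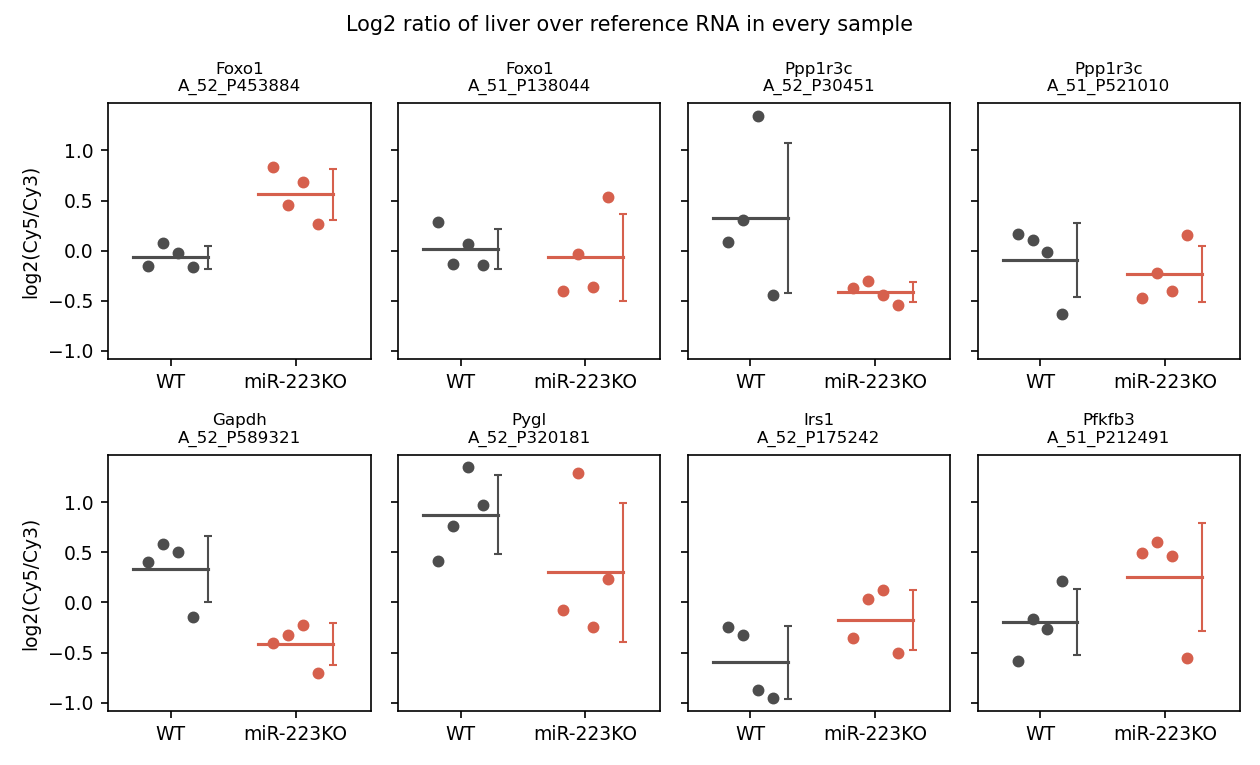
Log2 ratio of liver over reference RNA on every array for the probes the text describes most, WT in grey and miR-223KO in red, with the mean (line) and SD (bar) of 4 arrays. The groups are apart for Gapdh and for the first Foxo1 probe, whose miR-223KO values lie between 0.27 and 0.84 against at most 0.08 in WT, and they overlap for the second Foxo1 probe.

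In insulin and glucagon signalling 5 of 6 tested genes lay higher (83.3%, against 48.2% of all tested), and none passed. The count was the same with loess, with median centring and from the scanner's processed signals, though median centring also raised the share over all genes. With the mean of probes 4 of 6 lay higher, with a median of 0.03. Within slide 1 the count was 5 of 6 and within slide 2 it was 4 of 6. It ran from 4 to 6 of 6 when each array was left out in turn. With flagged spots kept 5 of 7 lay higher. Foxo1, the factor that insulin restrains, was 1 of the 2 genes whose groups did not overlap, on 1 of its 2 probes. Probe A_52_P453884 read -0.15, 0.08, -0.02 and -0.16 in WT and 0.84, 0.45, 0.69 and 0.27 in miR-223KO, so all miR-223KO arrays lay above all WT arrays. The mean was -0.06 ± 0.12 (SD, n = 4) in WT and 0.56 ± 0.25 (SD, n = 4) in miR-223KO. The difference was 0.62 (SE 0.18, 95% interval 0.23 to 1.01, unadjusted p = 0.0037, adjusted p = 0.98 in limma), or 1.54-fold higher, at 0.68 and 0.57 within the slides and 0.53 to 0.72 when each array was left out in turn. It was 0.48 in Cy5 and -0.15 in Cy3.

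The other Foxo1 probe, A_51_P138044, read 0.28, -0.13, 0.07 and -0.14 in WT and -0.40, -0.04, -0.36 and 0.54 in miR-223KO. Here 2 miR-223KO arrays lay below every WT array and 1 above, and the difference was -0.09 (SE 0.22). Both probes carry the RefSeq accession of Foxo1, both were well above background on all 8 arrays and neither had a flagged spot. Their longest shared stretch is 5 bases, and their first 30 of 60 bases are shown because the gene's difference rests on which of them is read.
Foxo1 A_52_P453884: ttctgggagaatgttcgctttctggtctat
Foxo1 A_51_P138044: ttcggaatgacctcatggatggagatacct
Foxo3, a related factor, stood near 0, with 0.10, -0.17, -0.11 and 0.18 in WT and 0.21, 0.08, -0.30 and -0.21 in miR-223KO, a difference of -0.06 (SE 0.19, 95% interval -0.45 to 0.34). It was well above background on 3 of 4 arrays of each group, and its other probe on none.

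Irs1, which links the insulin receptor to phosphoinositide 3-kinase, read -0.25, -0.32, -0.87 and -0.95 in WT and -0.35, 0.03, 0.12 and -0.51 in miR-223KO on its brightest probe. The lowest values were those of WT replicates 3 and 4, and the groups overlapped. The difference was 0.42 (SE 0.22, unadjusted p = 0.0714, adjusted p = 0.98 in limma), at 0.12 within slide 1 and 0.72 within slide 2, and the other probe stood at 0.02 (SE 0.25). Insr, the insulin receptor, read -0.11, -0.28, -0.48 and -0.21 in WT and -0.47, 0.02, -0.67 and 0.23 in miR-223KO on its brightest probe. The difference was 0.05 (SE 0.21, 95% interval -0.40 to 0.50), with the other probe at 0.05 (SE 0.18). The Insr probes thus gave nearly the same value, and the interval allows a difference of either sign. Akt2 stood at 0.11 (SE 0.19) and -0.14 (SE 0.20) on its 2 probes. Trib3, which encodes a pseudokinase that binds AKT, stood at 0.10 (SE 0.20) and -0.06 (SE 0.20). Gcgr, the glucagon receptor, stood at -0.15 (SE 0.21) with flagged spots kept.

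Probes of the same gene often differed in sign. Of the 12 genes with at least 2 tested probes, 7 had probes on both sides of 0, and among all genes of the arrays with at least 2 tested probes 2818 of 5156 did (54.7%). Of the 59 probes of listed genes, 51 were named by the RefSeq accession in the scanner file, 1 by that in the table and 7 by the table's symbol alone. The tested probes of Gapdh, Pygl, Tpi1 and Pdk2 were among these 7, as were 1 further probe each of Gpi1, Foxo3 and Pgk1. Within the slides, 12 of the 24 tested genes had the same sign on both.

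**Figure D4:**
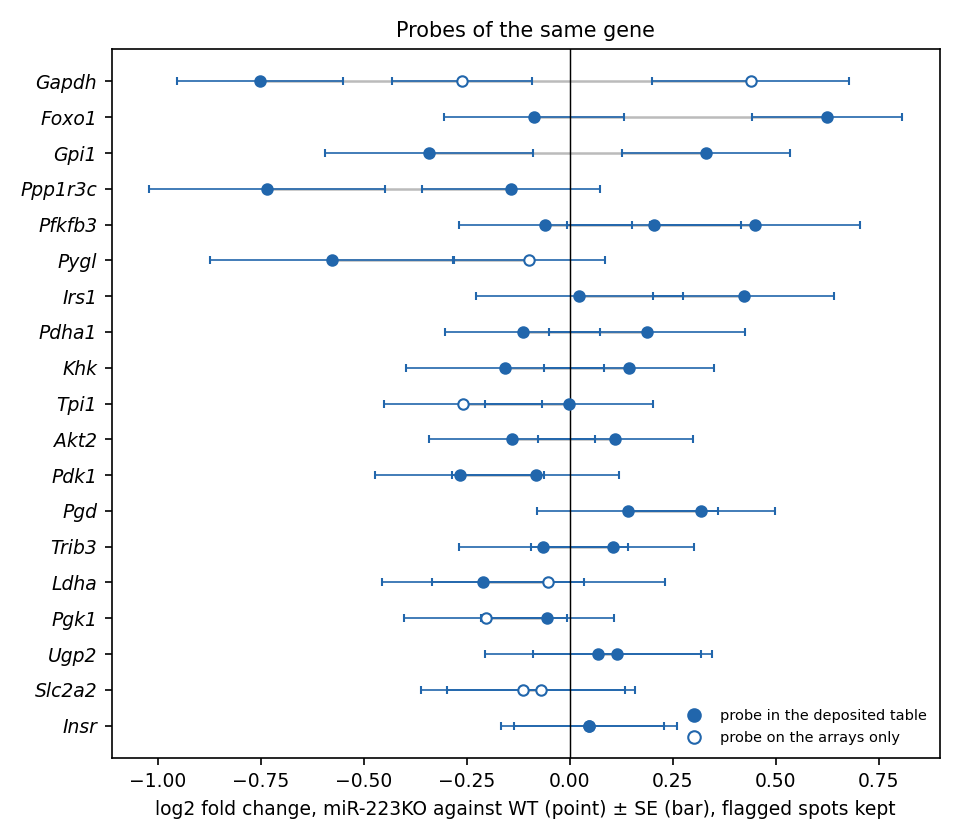
Log2 fold change, miR-223KO against WT (point), with its SE (bar) for each probe of the 19 genes measured by more than 1 probe, with flagged spots kept; filled points are probes in the deposited table and open points are probes found on the arrays only. Probes of Gapdh run from -0.75 to 0.44 and those of Foxo1 from -0.09 to 0.62, while the Insr probes coincide near 0.05.

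Other genes of the same pathways, a list of 110 that are not among the 38, were read in the same fit. Of these 92 were tested and 0 passed in limma, 5 had an unadjusted p under 0.05 (5.43%, against 4.67% of all tested), 3 higher and 2 lower, and 52 lay higher (56.5%, against 48.2% of all tested). Gpd2, the mitochondrial glycerol phosphate dehydrogenase, read 0.38, 0.26, 0.14 and 0.25 in WT and 0.66, 1.14, 0.90 and 0.58 in miR-223KO, without overlap, a difference of 0.56 (SE 0.18, adjusted p = 0.98 in limma). With flagged spots kept, another and brighter probe took its place at 0.30 (SE 0.25). Pck2, mitochondrial phosphoenolpyruvate carboxykinase, stood at -0.63 (SE 0.26), at -0.30 and -0.96 within the slides, and its WT replicate 3 read 0.69 against at most -0.32 on the other WT arrays. Grb2, an adaptor of receptor signalling, stood at 0.41 (SE 0.18) with groups that did not overlap, but its other probe stood at 0.0082. Mtor, a kinase of growth control, stood at 0.45 (SE 0.21).

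Hexokinase genes lay on both sides, with Hk3 at -0.39 (SE 0.18) and Hk2 at 0.44 (SE 0.24), which was 1.48 from the scanner's processed signals. Pdhb, a pyruvate dehydrogenase subunit, stood at 0.38 (SE 0.20) with groups that did not overlap, and Pdk4, a kinase induced in fasting, at 0.13 (SE 0.25). Mlxipl, which encodes ChREBP, stood at -0.36 (SE 0.30), at -0.85 within slide 1 and 0.12 within slide 2, and its other probe at 0.26 (SE 0.26). Igfbp1, a gene that FOXO1 is known to drive, stood at 0.13 (SE 0.43), with arrays from -0.77 to 0.94 in WT and from -1.42 to 1.00 in miR-223KO.

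The samples read as liver. Of 18 hepatocyte genes 17 were measured with flagged spots kept, and all 17 were well above background on all 8 arrays in Cy5, and also in the Cy3 reference. Their mean log2 ratio over the reference was 0.40 to 0.91 in WT and 0.21 to 0.64 in miR-223KO, and 4 of 17 lay higher in miR-223KO. Genes of Kupffer cells and macrophages lay higher in 8 of 11 cases, with mean log2 ratios of -0.32 to 0.45 in WT and -0.10 to 0.44 in miR-223KO. Endothelial genes lay higher in 9 of 10, with mean log2 ratios of -0.25 to 0.04 in WT and 0.0025 to 0.18 in miR-223KO. Neutrophil genes lay higher in 4 of 7, with mean log2 ratios of -0.16 to 0.049 in WT and 0.037 to 0.12 in miR-223KO. Only 3 of these 7 were well above background on all 8 arrays in Cy5, as were 5 of 9 lymphocyte and 2 of 5 erythroid genes. For Kupffer cells and macrophages it was 9 of 11, and for endothelial genes 8 of 10. Of the other lists, higher values were seen in 3 of 7 periportal hepatocyte, 3 of 7 pericentral hepatocyte and 3 of 9 lymphocyte genes. They were also seen in 6 of 9 stellate cell, 1 of 6 cholangiocyte, 3 of 5 adipocyte and 2 of 5 erythroid genes. The last lists had 0 of 4 exocrine pancreas and 2 of 3 skeletal muscle genes higher, against 48.0% of all tested. These marker counts and levels are with flagged spots kept. With those spots left out, 0 of 7 hepatocyte and 3 of 9 stellate cell genes lay higher, against 48.2% of all tested. The counts there were 7 of 10 for Kupffer cells and macrophages, 8 of 10 for endothelial and 4 of 7 for neutrophil genes. The part of these cell types in the values of Foxo1, Irs1 and the other genes was not tested, and fewer cells of a type cannot be told apart from less RNA per cell in whole liver. Between 49.5% and 69.8% of spots were well above background in Cy5, and 2.00% to 5.67% were flagged.

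Since 1 probe of Foxo1 parted the groups, the promoters of the listed genes were searched on both strands for the insulin response core TGTTTTG and the forkhead core TGTTTAC, which share their first 5 letters, and for the cyclic AMP response element by which glucagon acts (TGACGTCA). Windows of 300 bases from RefSeq on GRCm38.p6, 250 before to 50 after the start, were found for 35 genes with 53 promoters. TGTTTTG stood in 4 of 53 windows (7.55%), those of G6pc, Gckr, Irs1 and Irs2, against 2064 of 32851 promoters of all genes (6.28%). TGTTTAC stood in 0 of 53, against 3.65% of all, and TGACGTCA in 1, that of Ldha, against 1.79% of all. The 250 bases before the start are shown for G6pc and Irs1, both among the 4 genes whose windows hold the motif. Matches are in capitals. The G6pc stretch lies on the plus strand at chr11:101367466-101367715, and that of Irs1 on the minus strand at chr1:82291440-82291689.
G6pc: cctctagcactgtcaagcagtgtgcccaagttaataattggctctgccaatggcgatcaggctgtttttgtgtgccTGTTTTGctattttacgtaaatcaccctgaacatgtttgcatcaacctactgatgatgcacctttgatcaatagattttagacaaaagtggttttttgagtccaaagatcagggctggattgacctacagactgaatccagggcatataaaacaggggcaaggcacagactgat
Irs1: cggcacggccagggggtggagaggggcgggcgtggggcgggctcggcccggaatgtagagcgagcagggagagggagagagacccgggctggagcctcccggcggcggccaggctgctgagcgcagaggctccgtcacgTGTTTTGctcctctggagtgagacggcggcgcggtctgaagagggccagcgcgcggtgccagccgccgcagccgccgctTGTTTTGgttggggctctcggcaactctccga
The match begins at base 77 in G6pc and at bases 140 and 219 in Irs1, counted from the first base shown. G6pc stood at 0.35 (SE 0.35) with flagged spots kept, Gckr at -0.35 (SE 0.24) and Irs1 at 0.42 (SE 0.22), while Irs2 has no value. The measured genes with the motif thus lay on both sides of 0, and none passed. Whether the motif bears on these values was not tested.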

How the data were processed

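Per the file headers, the arrays (design 014868, a grid named for mm9) were read with Agilent Feature Extraction, version 12.0.3.1 and protocol GE2_1200_Jun14. The deposited scanner files hold spot and local background intensity and a LogRatio, the log10 of processed Cy5 over Cy3, per the file headers. The authors' deposited table holds log2 ratios of processed signals and a log2 fold change.

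Median signals were background-corrected with normexp (offset 50), normalised within arrays by loess and averaged over the spots of a probe, in limma 3.58.1 under R 4.3.3. Outlier-flagged spots were left out. Testing required Cy5 well above background on 4 or more of the 8 arrays and 3 or more unflagged values per group, and a gene was read by its brightest tested probe. Differences by channel were rebuilt after Aquantile normalisation. The two-sided test was that of limma (lmFit, then eBayes). In the main fit p-values were adjusted by Benjamini-Hochberg over all 16750 genes and unnamed probes. The counts with flagged spots kept, and the Gapdh p beside them, came from a fit adjusted over 17776. Other values of listed genes with flagged spots kept came from a fit of every probe on its own, adjusted over those probes. Second probes with flagged spots left out were likewise fitted on their own. The fit was tested on simulated data. Probes were named by RefSeq accession, else by the table's symbol. RefSeq coordinates of genes were not used, since their build differs from the files' grid.

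The genes and lists were chosen with earlier results of these data known. Values of every array are given for the 12 genes with the smallest p and for a fixed set, and of other pathway genes the rule takes the 8 with the smallest p and 5 fixed ones, some of which are not reported here.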

Additional observations from a re-analysis of the deposited data

Results flagged for a closer look

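On the brightest Pfkfb3 probe, miR-223KO replicate 4 read -0.55, while the other miR-223KO arrays read 0.46 to 0.60. The gap to its nearest neighbour was 0.88 of the range of the group, above Dixon's critical value for 4 samples. Of 41 groups of 4 looked at this was the 1 flagged, where chance flags about 1 in 20.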

How the results depend on the processing

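Of 869 values of single genes under 19 settings with a test and within each slide, 860 kept their direction or stayed within the error, 4 moved by more than the spread between arrays, and 0 passed the test. The 5 that turned were Gpi1 with the mean of its probes (-0.0674), Pygl within slide 1 (0.0166), Pfkfb3 within slide 2 (-0.0241), Mlxipl within slide 2 (0.12) and G6pc, with flagged spots kept, without WT replicate 4 (-0.0448, and up to 0.5789 without WT replicate 1). The cause was not tested. The count of all genes past the test, 2, became 4 with a normexp offset of 16, and 1 with processed signals, median centring, flagged spots kept or the mean of probes. It ran from 2 to 4 when each array was left out in turn, with 4 without miR-223KO replicate 1. Genes of the list past the test stayed at 0 in all settings. With median centring their median was 0.17 and 16 of 24 lay higher, against 11 of 24 with loess, while over all genes 10695 of 16750 lay higher, against 8078. With the replicate number as a block 2 genes passed, 0 of them of the list, whose median was 0.02. Same-numbered arrays deviated together with correlations of -0.0063, 0.0584, 0.0061 and -0.0274, so the numbers were not taken as pairs. The number of arrays limits the precision, and bright genes are limited by flagged spots.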
